A study of Homo sapiens with 2 samples.

Results

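The MYC, MAX and MXD network is a set of transcription factors that share a dimer partner and compete for the same DNA element. It was described here in the established prostate cancer line C4-2B ENZR, which is resistant to enzalutamide, a drug that blocks the androgen receptor. Its members were the 10 genes MYC, MYCN, MYCL, MAX, MXD1, MXI1, MXD3, MXD4, MNT and MLX, matched by gene symbol, and all 10 were found among the 26475 symbols of both deposited tables. RNA was sequenced from 1 library of cells with a non-targeting short hairpin RNA (the control library, labelled WT) and from 1 library of cells with a hairpin against the coding region of NRP2 (the NRP2 library, labelled NRP2 knockdown). Both cell populations were infected with lentivirus, selected with antibiotic and grown in 20 µM enzalutamide. NRP2 encodes neuropilin-2, a surface protein that helps semaphorins and VEGF proteins signal, and the comparison asks what differed when it was targeted. Parental cells without a hairpin and a further hairpin against NRP2 were not analysed here.

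MYC, MYCN and MYCL (N-MYC and L-MYC) are basic helix-loop-helix leucine zipper proteins that bind DNA as dimers with MAX and mostly activate genes of growth, ribosome production and metabolism. MXD1, MXI1, MXD3, MXD4 and MNT also pair with MAX, bind the same E-box CACGTG, and repress transcription by recruiting SIN3 and histone deacetylases, so the balance of the 2 sides is thought to set the output of shared targets. MLX is a MAX-like partner that dimerises with MondoA (MLXIP) and ChREBP (MLXIPL), which respond to sugar phosphates, and with some MXD proteins and MNT. In prostate cancer MYC is a common oncogene, and N-MYC is associated with neuroendocrine tumours.

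Members of the network can themselves carry the element that the network binds, so promoter windows of RefSeq genes (GRCh38.p14), each 250 bases before and 50 after a start, were searched. Windows of 9 of the 10 members were searched, 12 windows in all. MYC was the member not searched, so nothing is said here of its promoter. The palindromic E-box CACGTG occurred in 3 of them, those of MLX, MNT and MXD4, against 7.26% of all 35116 windows. The shorter core ACGTG, searched on both strands because it is the core of the element bound by hypoxia-inducible factors and because MXI1 is a known target of these factors, lies inside every CACGTG; it was in 5 member windows and in 21.4% of all windows. The matches of 4 members are shown, and that in a window of MAX is not, with 12 bases on each side, 5′ to 3′ on the gene's strand, with the match in capitals; for MXI1, CACGT is ACGTG on the other strand.
MLX (chr17:42567038-42567067, + strand): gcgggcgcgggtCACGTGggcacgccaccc
MNT (chr17:2401236-2401265, - strand): ccctgcccgggcCACGTGtgcgcgcgccgg
MXD4 (chr4:2262330-2262359, - strand): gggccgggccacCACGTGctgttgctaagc
MXI1 (chr10:110210106-110210134, + strand): gtggccaccagtCACGTaagcagagagcc
The matches begin 50, 193, 238 and 113 bases before the start, respectively. None of these stretches overlapped an exon of the GENCODE release 29 basic annotation of GRCh38, and the MXI1 stretch lies within the MXI1 gene, in an intron of its longer transcripts, since MXI1 has 3 listed starts. No binding was measured in this series, so the matches describe letters only.

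The deposited values are reads per gene scaled by the authors to library size (CPM). Within 0.01 read, 100% of the values come out as whole reads, which were recovered; the control library held 21052178 and the NRP2 library 22992304. With 1 library in each group no spread between replicates exists, and every difference describes these 2 libraries. The 95% intervals come from the recovered reads and cover counting error only. The submitters' notes name RSEM and Bowtie2, but what each did in assigning reads to genes is not stated in the sources used here. Whether the whole numbers are direct counts or rounded estimates is likewise not stated. The intervals leave out any error from the assignment. NRP2 itself was at 0.974 CPM (20 reads) in the control library and 0.330 CPM (7 reads) in the NRP2 library. The control level was 2.95-fold that of the NRP2 library, with a wide interval (1.20 to 8.26). Its mean of 0.652 CPM is under the 1 CPM that genes compared below had to reach. The luminal prostate markers fixed for the label were detected, all 15 at a mean of 1 CPM or more, while 13 of 20 markers of immune, endothelial, stromal, muscle and red cells lay under that level and DCN and DES had no read. The 20 summed to 60.4 CPM (control) and 56.8 CPM, mostly COL1A1 at 41.5 and 32.5 CPM.

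The network's RNA differed little between the libraries, in which fewer cells with a transcript and less of it per cell cannot be told apart. Changes are given as log2((NRP2 library CPM + 1)/(control library CPM + 1)), which understates the change of low genes, and the 13316 genes whose mean over the libraries reached 1 CPM were compared. Of the 10 members, 9 passed that filter; MYCN did not. MXD1, a repressor, was the 1 member at least 1.5-fold higher in the NRP2 library, 0 members were at least 1.5-fold lower, and 8 lay between. Among all compared genes, 5.78% were higher by that fold and 3.57% were lower by it. The median log2 change was 0.08 for the 9 members and 0.03 for all compared genes, and the members ranged from -0.32 for MAX to 0.61 for MXD1, inside the central 95% of all genes (-0.66 to 0.84). Of the genes past 1.5-fold as deposited, 61.8% were higher (769 higher and 476 lower). With equal library totals that share was 47.6% (593 higher and 652 lower), and MXD1, at 0.53, no longer passed 1.5-fold.

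**Figure D1:**
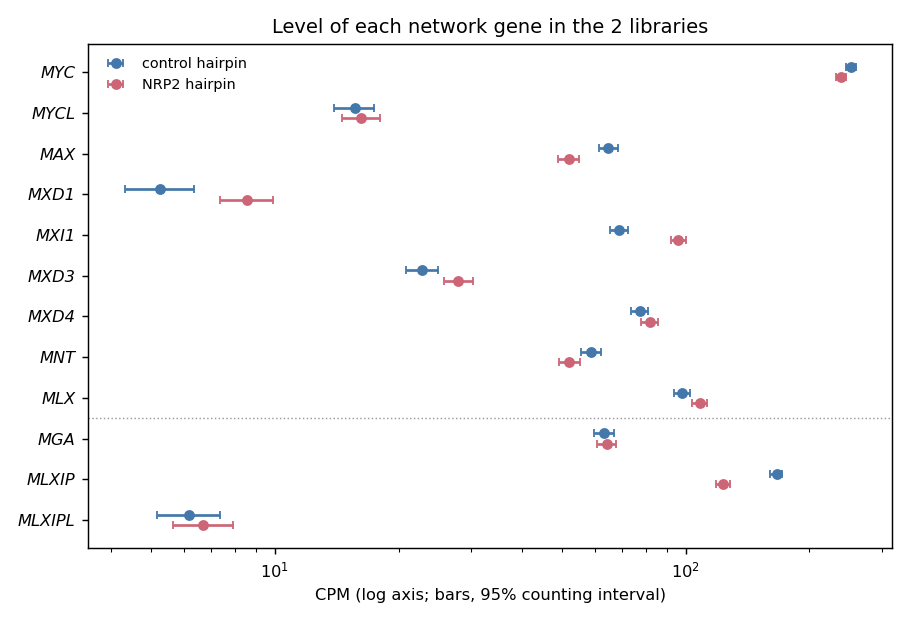
CPM of 9 network members and, below the dotted line, of MGA, MLXIP and MLXIPL, in the control hairpin and the NRP2 hairpin library, on a log axis; bars are 95% Poisson intervals of the reads. The bars of the 2 libraries do not overlap for MAX, MXD1, MXI1, MXD3, MNT, MLX and MLXIP, and they do for MYC, MYCL, MXD4, MGA and MLXIPL.

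MYC itself, the activator that drives growth programmes, was nearly level. It was at 252 CPM in the control library (5185 reads) and at 239 CPM in the NRP2 library (5068 reads). The control level was 1.06-fold that of the NRP2 library (1.02 to 1.10), and the log2 change was -0.08 (-0.13 to -0.02). Counting error is thus smaller than the difference, but scaling is not: the log2 change of MYC was -0.16 with equal library totals and also with quantile normalization, outside the counting interval. MYC stood at percentile 34.6 of the changes of all compared genes, and its change was below 0 under each of the scalings and pseudocounts run.

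The paralogs of MYC had few reads. MYCL was at 15.6 CPM in the control library (321 reads) and 16.2 CPM in the NRP2 library (344 reads). Its log2 change was 0.05 (-0.16 to 0.26), an interval that includes no difference, and turned to -0.03 with equal library totals. MYCN, the paralog tied to neuroendocrine prostate cancer, had 0 reads in the control library and 2 reads in the NRP2 library. A count of 0 allows up to 0.146 CPM in the control library, and 2 reads are 0.0943 CPM, so no difference in MYCN was detectable at this depth. MYC thus supplied nearly all reads of the MYC family in both libraries.

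MAX, the partner shared by the MYC and MXD proteins, had the lowest change of the network. It was at 64.8 CPM in the control library (1332 reads) and 51.9 CPM in the NRP2 library (1100 reads). The NRP2 library had 0.800 times the control level (0.738 to 0.867), a log2 change of -0.32 (-0.43 to -0.20). The alternatives placed it between -0.40 and -0.30, short of 1.5-fold in each. MAX stood at percentile 12.4 of all compared changes.

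MXI1 and MXD1 were the members with the highest changes, and both encode MAX partners that oppose MYC. MXI1 was at 68.8 CPM in the control library (1413 reads) and 96.0 CPM in the NRP2 library (2035 reads). It was 1.40-fold higher (1.30 to 1.49), a log2 change of 0.47 (0.38 to 0.57) that stayed under 1.5-fold on the scale used and ranked 1117 of 13316 from the highest. The alternatives gave 0.39 to 0.48. The tables hold 1 value for the gene, so the transcripts that begin at the 3 starts of MXI1 cannot be told apart.

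MXD1, which is known for its induction as cells leave the cycle and differentiate, had few reads. It was at 5.26 CPM in the control library (108 reads) and 8.54 CPM in the NRP2 library (181 reads). The ratio was 1.62-fold higher in the NRP2 library (1.27 to 2.08), and the log2 change was 0.61 (0.30 to 0.91), rank 717 of 13316 from the highest. Its place past the threshold of 1.5-fold was narrow: the log2 change was 0.40 with a pseudocount of 5 CPM, 0.53 with equal library totals, 0.58 with the median log2 ratio set to 0 and 0.57 with quantile normalization, each under 1.5-fold.

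The other repressors differed less and in both directions. MXD3, the family member known for expression in S phase, was at 22.8 CPM in the control library (469 reads) and 28.0 CPM in the NRP2 library (593 reads), 1.22-fold higher (1.08 to 1.39). MXD4 was at 77.2 CPM (1586 reads) and 81.8 CPM (1735 reads), with a log2 change of 0.08 whose interval includes no difference (-0.02 to 0.18). MNT, the most widely expressed MAX-binding repressor and the one regarded as the main counterweight of MYC in cycling cells, went the other way. It was at 58.8 CPM in the control library (1207 reads) and 52.1 CPM in the NRP2 library (1105 reads), 1.13-fold higher in the control (1.04 to 1.22). Of the 5 repressors, 4 therefore had a log2 change above 0, with MNT the exception; over all compared genes 54.1% were above 0. The exons of MXD3 overlap those of PRELID1 on the opposite strand in the GENCODE annotation, PRELID1 was at 331 and 375 CPM, and whether the counting used strand is not stated in the sources used here, so the value of MXD3 is uncertain. Exons of MYCL, MAX, MXI1 and MNT also overlap antisense models there, whose levels were not analysed here.

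MLX, the second dimerisation hub, was at 98.1 CPM in the control library (2015 reads) and 108 CPM in the NRP2 library (2292 reads). The ratio was 1.10-fold higher in the NRP2 library (1.04 to 1.17), a log2 change of 0.14 (0.05 to 0.22). Its exons overlap those of PSMC3IP on the opposite strand, at 39.9 and 36.3 CPM, with the same uncertainty. The partner MLXIP, which encodes the glucose sensor MondoA and is not one of the 10 members, showed a larger difference in the other direction. MLXIP was at 166 CPM in the control library (3415 reads) and 123 CPM in the NRP2 library (2607 reads), 1.35-fold higher in the control (1.28 to 1.42), a log2 change of -0.43 at percentile 7.16 of all compared genes. Per MLX read there were 1.69 MLXIP reads in the control library and 1.14 in the NRP2 library, 1.49-fold more in the control (1.38 to 1.61). The related MLXIPL, or ChREBP, was low, at 6.18 and 6.70 CPM, and MGA, a large MAX partner found in Polycomb-type repressor complexes, was level at 63.3 and 64.2 CPM. The intervals of both included no difference.

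**Figure D2:**
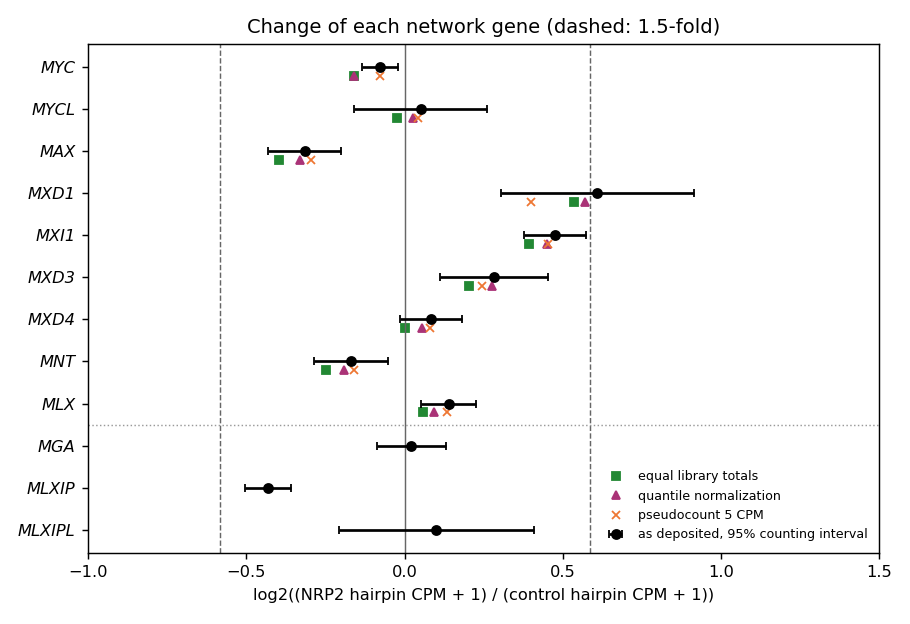
Log2 change of each network gene with its 95% counting interval (black), and for the 9 members the same change under 3 other settings (coloured); dashed lines mark 1.5-fold. MXD1 at 0.61 is the 1 black point past a dashed line, and its coloured points lie inside it. MYC (-0.08), MNT (-0.17), MAX (-0.32) and MLXIP (-0.43) lie below 0 with their whole intervals.

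An exact binomial test of each gene's recovered reads, with Benjamini-Hochberg adjustment over all compared genes and chosen after seeing the data, called 7 of the 9 members different at an adjusted p under 0.05, 4 higher (MXD1, MXI1, MXD3 and MLX) and 3 lower (MYC, MAX and MNT). It called 52.2% of all compared genes (6954), 30.2% as higher and 22.0% as lower, since it measures counting error between these 2 libraries and not the spread between cultures. Against that share the members' count says little of the network.

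Levels of different genes can be set side by side only per transcript length, taken as the median length of protein-coding transcripts in the GENCODE basic annotation. On this scale MYC was highest in the control library, at 124 CPM per kb, followed by MAX (84.8), MLX (40.4), MXI1 (31.4), MNT (21.0), MXD4 (19.0), MXD3 (15.1), MYCL (8.04) and MXD1 (0.942 CPM per kb). In the NRP2 library MYC was at 117, MAX at 67.8, MLX at 44.5, MXI1 at 43.9, MXD4 at 20.2 and MNT at 18.6 CPM per kb. The order below MYC rests on the length chosen. Transcripts of MAX, 13 in all, run from 0.330 to 3.16 kb, and per kb of the longest one MAX was at 20.6 CPM in the control library, behind MLX (37.9), and at 16.4 CPM in the NRP2 library, behind MLX (41.8), MXI1 (27.7) and MXD4 (20.2). On that scale MXD4 was above MNT in both libraries (19.0 against 11.8, and 20.2 against 10.4 CPM per kb). MYC stayed highest at 107 and 101 CPM per kb.

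The balance between the repressors and the MYC family can be read within a library, free of the scaling between libraries. Summed reads of MXD1, MXI1, MXD3, MXD4 and MNT were 0.869 of the summed reads of MYC, MYCN and MYCL in the control library (4783 to 5506 reads). In the NRP2 library they were 1.04 of them (5649 to 5414 reads). The ratio was 1.20-fold higher in the NRP2 library, with an exact conditional interval of 1.14 to 1.27. Without MXI1 the difference was 1.09-fold (1.03 to 1.16), and without MNT it was 1.29-fold (1.22 to 1.37). These sums count reads and not molecules, because long transcripts give more reads, and they hold no information on protein.

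The same reading against the shared partner, chosen after the values were seen, set 8 members beside MAX. Because MAX had the lowest change of the 9, all of these ratios had to be at least as high in the NRP2 library. Their sizes combine each member's own difference with that of MAX, so they are not separate evidence. A member that was lower in the NRP2 library, such as MYC (log2 change -0.08), thus has a ratio that is higher there. Reads of MXI1 per read of MAX were 1.06 in the control library and 1.85 in the NRP2 library, 1.74-fold higher (1.57 to 1.94). Reads of MXD1 per read of MAX were 2.03-fold higher (1.57 to 2.63), those of MXD3 1.53-fold higher (1.32 to 1.77) and those of MYC 1.18-fold higher (1.08 to 1.29). MNT moved most nearly with MAX, at 1.11-fold (0.987 to 1.24), the 1 interval of 8 that included no difference.

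**Figure D3:**
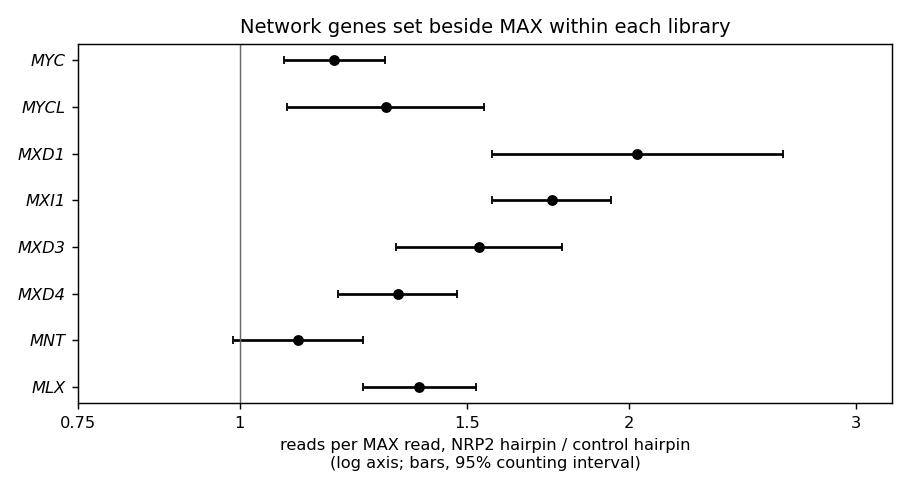
Reads of each member per read of MAX in the NRP2 hairpin library divided by the same in the control hairpin library, on a log axis, with 95% exact conditional intervals. MXD1 (2.03) and MXI1 (1.74) lie farthest from 1, and the interval of MNT crosses 1.

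RNA of the cofactors that MYC and the repressors work through was near level as groups. Of 18 MYC cofactors of chromatin, such as the histone acetyltransferase scaffold TRRAP, none passed 1.5-fold in either direction (0 higher, 0 lower), and the median log2 change was -0.03; the lowest were KAT5 (-0.34), SMARCB1 (-0.28) and EP300 (-0.27), and CDK9 (0.23) and RUVBL2 (0.18) were among the highest. ZBTB17, which encodes MIZ1, through which MYC represses genes, was at 31.5 and 32.0 CPM. Of 20 subunits of the SIN3 and histone deacetylase corepressor that MXD proteins and MNT recruit, 1 was at least 1.5-fold higher and 2 lower. These are 5% and 10% of the list, against 5.78% and 3.57% of all compared genes. The median of 0.04 turned to -0.04 with equal library totals. The lower ones were SUDS3, at 107 and 62.0 CPM, and FAM60A, at 154 and 93.0 CPM, both SIN3 complex subunits, and the higher one was SAP30, at 5.26 and 9.76 CPM. BRMS1L (-0.47) was next among the low ones, and ARID4A (0.34) and HDAC2 (0.15) among the high ones.

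Genes that act on MYC showed single differences. Of 29 genes that govern the stability of MYC protein, 1 was at least 1.5-fold higher (3.45%) and 2 lower (6.90%). Over all compared genes 5.78% were higher and 3.57% lower by that fold. The median of the 29 was 0.02 and turned to -0.06 with equal library totals. PIM1, a kinase that stabilises MYC, was at 10.1 and 17.0 CPM; USP36, a nucleolar deubiquitinase of MYC, was at 36.7 and 24.0 CPM; and the ubiquitin ligase gene FBXL14 was at 22.5 and 14.2 CPM. FBXO32 (-0.52), PPP2R5A (0.40) and STUB1 (0.35) were the next in size. Of 16 factors that act on MYC transcription, LEF1, a nuclear effector of Wnt signalling, was the 1 gene past 1.5-fold (6.25%), at 57.9 and 21.0 CPM. The median of the 16 was 0.06, and -0.02 with equal library totals; CTCF (-0.32) and FUBP1 (-0.30) were low and TCF7L2 (0.32), E2F1 (0.29) and NOTCH1 (0.21) high.

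Genes that MYC is known to induce were also near level. None of 44 genes of ribosome production and the nucleolus passed 1.5-fold (0 higher, 0 lower), against 5.78% and 3.57% of all compared genes. In that list 28 had a log2 change below 0 and 16 above, while 54.1% of all compared genes were above 0. The median was -0.06, and it was -0.14 with equal library totals and -0.13 with quantile normalization. With equal library totals the median of all compared genes was -0.05. The list ran from NOC4L (-0.42), UTP20 (-0.41) and RRP9 (-0.30) to POLR1B (0.23), NOB1 (0.23) and FBL (0.42). Of 39 metabolic and translation genes, 2 were higher (5.13%) and 0 lower, against 5.78% and 3.57% of all compared genes. The median of 0.05 turned to -0.03 with equal library totals or quantile normalization. The 2 were the glycolytic genes LDHA, at 947 and 1945 CPM, and ENO1, at 1984 and 3278 CPM; PKM followed at 0.57, and the amino acid transporters SLC7A5 (-0.35) and SLC1A5 (-0.30) and the CTP synthase gene CTPS1 (-0.26) were lowest. Of 27 cell cycle genes, CCND2, at 3.21 and 5.99 CPM, was the 1 past 1.5-fold (3.70%), and the median of 0.05 turned to -0.03 with equal library totals. E2F1 (0.29) and CCND1 (0.28) were next, and CDCA7 (-0.21), CKS1B (-0.17) and CCNA2 (-0.16) lowest.

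Genes that MYC is known to repress had a higher median than those it induces. Of 28 compared (30 listed), 7 were at least 1.5-fold higher in the NRP2 library, or 25.0% against 5.78% of all compared genes, and 0 were lower. Their median log2 change was 0.33, against 0.03 for all compared genes, and 0.26 to 0.35 over the other scalings, pseudocounts and filters. Highest of the 7 were the stress gene NDRG1 (2.31), the matrix gene THBS1 (1.41) and the cell cycle inhibitor CDKN1C (1.20). The others were TIMP2 (0.82), CCNG2 (0.66), BTG2 (0.66) and CAV1 (0.66, on 30 and 61 reads). The count of 7 was not repeated under the other scalings, pseudocounts and filters. SESN3 (-0.31), KLF6 (-0.25) and CLU (-0.14) were lowest in the list. NDRG1, THBS1 and CAV1 were known to be high in these libraries when the list was made, so the count is not independent evidence of a direction, and these genes answer to many other regulators. CDKN1A, the cell cycle inhibitor gene best known as repressed by MYC through MIZ1, is in the list and was at 186 and 208 CPM, short of 1.5-fold. Targets of MLX dimers with MondoA and ChREBP had 0 higher and 1 lower of 17 compared. The lower share was 5.88%, against 3.57% of all compared genes, and the median was 0.10. TXNIP, the thioredoxin-binding protein gene most used as a readout of MondoA, was at 104 and 142 CPM, and its relative ARRDC3 at 34.6 and 22.4 CPM was the lower gene; FGF21 (0.56) and GPD1 (0.55) were highest, and G6PC3 (-0.31) and ACACB (-0.28) followed ARRDC3.

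MXI1 and LDHA are also known targets of hypoxia-inducible factors, and other genes of that group, known to be high in these libraries when the list was made, differed more than the network. Of 24 compared, 17 were at least 1.5-fold higher (70.8%, against 5.78% of all compared genes) and 0 lower. Their median log2 change was 1.04, against 0.47 for MXI1. Because the list was made with high values known, neither the count nor the median is independent evidence of a direction. They ran from ANKRD37 (-0.07), CA12 (0.26) and EGLN3 (0.29) to BNIP3 (2.06), NDRG1 (2.31) and CA9 (3.10). Whether hypoxia-inducible factors had a part in the level of MXI1, NDRG1 or LDHA was not tested. Without the members that the hypoxia list also holds, the MYC-repressed list had 6 of 27 higher and a median of 0.32. The metabolic list then had 1 of 37 higher, ENO1. The hypoxia list is short, at 26 genes, and whether the genes left also answer to these factors was not tested.

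**Figure D4:**
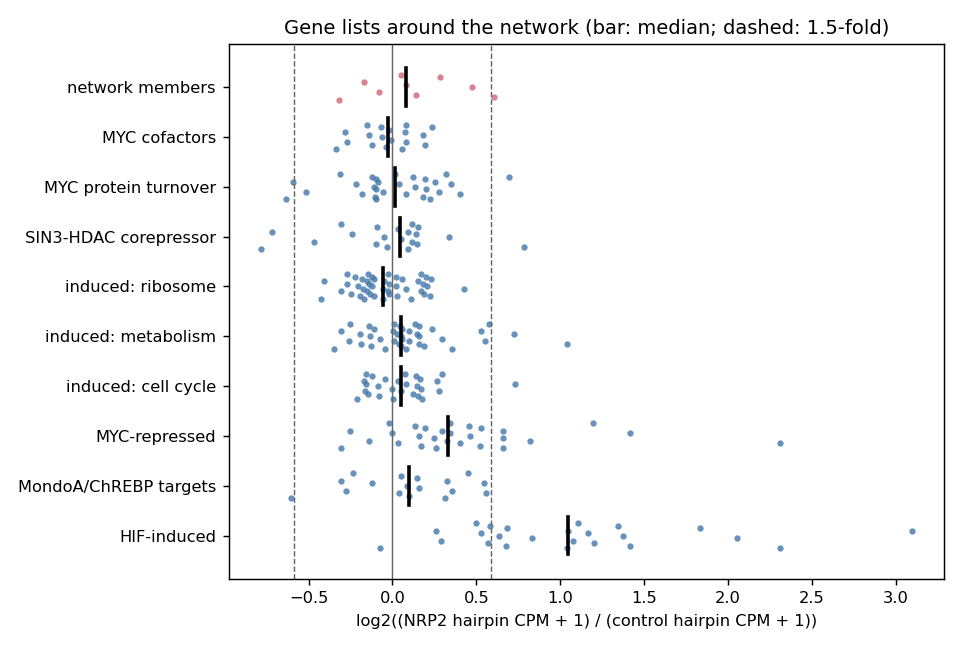
Log2 change of the 9 compared members (red) and of the compared genes of 9 lists around the network (blue), 1 point a gene, with each list's median as a black bar and 1.5-fold as dashed lines; the vertical scatter has no meaning. The medians of the induced, cofactor, turnover and corepressor lists lie near 0, that of the MYC-repressed list at 0.33 and that of the HIF-induced list at 1.04.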

How the data were processed

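The deposited tables give 1 signal value per gene symbol, which the authors scaled with TMM to CPM, as the names of the deposited files say. The submitters' processing notes name build hg19 and edgeR, RSEM 1.2.15, Bowtie2 2.1.0 and bcl2fastq 2.17; what each did, which annotation was used and whether strand counted is not stated in the sources used here. The columns sum to 1024943 and 1084413 and not to the same total. Another 28 symbols that had become calendar dates (0.181% and 0.184% of reads) were left out.

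Computed here, with Python 3.11.15, NumPy 2.4.6, pandas 2.3.3 and SciPy 1.17.1, were recovered reads, log2 changes with a pseudocount of 1 CPM, Clopper-Pearson and Poisson 95% intervals, and read ratios with exact conditional intervals. Calculations were tested on simulated data. With 1 library per group no test between conditions was possible. The design had named CPM; the values were used as deposited.

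Named were all members, MGA, MLXIP and MLXIPL, and the 3 highest and 3 lowest compared genes of each list; other genes named were chosen after their values were seen, and a gene that this rule names is not reported here. Members and the 14 lists were chosen with earlier results of these data known. Symbols were matched as listed, 2 through a synonym. Transcript lengths came from GENCODE release 29, a different build, and no coordinate was moved between builds. Of the identity lists, luminal markers had a median log2 change of 0.16, with KLK3 (2.67), KLK2 (2.43) and TMPRSS2 (0.63) highest and FOXA1 (-0.58), STEAP2 (-0.34) and SLC45A3 (-0.25) lowest. The 7 compared markers of other cells had a median of -0.11, from COL1A1 (-0.34), PDGFRB (-0.25) and COL1A2 (-0.14) to ACTA2 (0.24), CD68 (0.51) and HBA1 (1.51, on 3 and 48 reads, shared with its near-identical copy).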

Additional observations from a re-analysis of the deposited data

How the results depend on the processing

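No paired analysis was possible because each group holds 1 library with no replicate number, and for the same reason no library could be left out. Values without replicates were held to have moved when they left their counting interval (for a list, its members' median half-width), and counts when they changed by over 1.5 times. The 1 member past 1.5-fold higher, MXD1, became 0 with a pseudocount of 5 CPM, with equal library totals, with the median log2 ratio set to 0, with quantile normalization and at 2-fold; it became 2 at a laxer fold, and the exact binomial test called 4 higher and 3 lower. Over all compared genes, 329 were higher and 159 lower with a pseudocount of 5 CPM, 465 and 310 at a mean of at least 5 CPM, 194 and 70 at 2-fold, 2017 and 1605 at that laxer fold, and 4028 and 2926 by the exact binomial test. The ratio of repressor to MYC family reads was 1.09 without MXI1 and 1.29 without MNT. With equal library totals the list medians were -0.11 for MYC cofactors, -0.024 for factors of MYC transcription, -0.027 for induced metabolic genes and 0.079 for luminal markers. With quantile normalization they were -0.044 for factors of MYC transcription, -0.027 for induced metabolic genes, 0.069 for luminal markers and 0.94 for hypoxia genes, which were also at 0.94 without a filter. Means in place of medians were -0.10 for MGA, MLXIP and MLXIPL, -0.046 for factors of MYC transcription and 0.40 for luminal markers. Of the single members' log2 changes, 3 moved, MYC to -0.16 with equal library totals and with quantile normalization and MYCN to 0.46 with a pseudocount of 0.25 CPM, and 47 did not. The other 124 counts, medians and ratios stayed within their limits, and the causes of the shifts were not tested. Depth limits MYCN, with 0 and 2 reads, and MXD1, with 108 and 181.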
